A study of Homo sapiens with 6 samples.

Results

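The genes described here are the members of the HOX clusters, measured in 3D and in 2D cultures of SKOV3, a widely used cell line from a human ovarian adenocarcinoma. They were taken as every gene whose platform symbol begins with HOXA, HOXB, HOXC or HOXD followed by a number, and the brightest probe set over the 6 arrays stood for each gene. This rule gave 30 of the 14884 named genes, of which 27 code for HOX proteins and 3 are antisense RNAs. The 3D cells (n = 3 arrays) were kept for 11 days on low-attachment plates in McCoy's 5A medium with 15% FBS and 0.015% (w/v) FP001, a medium additive for which the labels give a code name and no composition. The 2D cells (n = 3 arrays) grew for the same time on attachment plates in the same medium and serum with Milli-Q water in place of FP001. Plate and additive changed together and cannot be told apart. Each sample was collected 3 times per the design text, and the labels do not state whether replicates were separate cultures, so the p-values cover the spread among these arrays, part or all of which may be technical.

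HOX genes encode homeodomain transcription factors that give cells their position along the body axis, and they lie in 4 clusters in which the order on the chromosome matches the order of expression from head to tail. The low-numbered (anterior) genes act in hindbrain and neck, the central genes in the trunk, and the high-numbered (posterior) genes in the lower trunk, limb ends and reproductive tract. HOX proteins bind DNA together with TALE homeodomain partners of the PBX and MEIS families. The clusters are held silent by Polycomb complexes, are kept active by Trithorax (MLL) complexes and respond to retinoic acid during development. In the Müllerian duct, which forms the oviduct and uterus, posterior HOXA genes mark successive regions.

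The 27 coding genes cover HOXB and HOXD fully and the other clusters in part. All 10 HOXB genes (chromosome 17) and all 9 HOXD genes (chromosome 2) were measured, with 7 of 9 HOXC genes (chromosome 12) and 1 of 11 HOXA genes (chromosome 7). The 7 HOXC genes leave out HOXC5 and HOXC6. Of the HOXA genes HOXA2 was measured, and the posterior HOXA genes that pattern the Müllerian duct were not analysed here. Values are log2 RMA values, in which 1 unit is a doubling of signal, and differences are 3D minus 2D. Levels are not comparable from 1 probe set to another. To place the signals, the lower quartile, median and upper quartile of all probe sets averaged 2.93, 4.33 and 6.10 over the arrays. None of the 27 coding genes had a mean under the lower quartile, 24 were above the median (88.9%, against 72.5% of all named genes) and 10 above the upper quartile (37.0%, against 43.8% of all named genes). Of those 10, HOXB held 8 (HOXB2 to HOXB9) and HOXD held 2 (HOXD8 and HOXD13).

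Across genes the arrays correlated at 0.988 to 0.995 within 3D, at 0.991 to 0.993 within 2D and at 0.975 to 0.982 between the groups. One array stood apart within its group: 3D replicate 1 correlated at 0.988 with each of the other 3D arrays, which correlated with each other at 0.995. The counts of HOX calls and the median HOX difference are therefore given with and without it, as are the differences of some of the genes. Of 12 measured markers of ovarian carcinoma and of this line (of 15 listed), 4 rose and 1 fell (41.7%, against 10.0% of all genes called), and 6 rose and 2 fell without 3D replicate 1 (66.7%, against 12.8%). Over all arrays EPCAM (1.76 ± 0.11 SE), SOX17 (1.63 ± 0.15), CLDN3 (1.12 ± 0.13) and CLDN4 (0.64 ± 0.12) rose. KRT7 fell (-0.93 ± 0.14). PAX8, the Müllerian lineage factor, did not pass and read 10.34 in 3D and 10.18 in 2D, above the upper quartile. WT1 (5.20 in 3D and 5.25 in 2D) and EMX2 (3.89 in 3D and 4.27 in 2D) did not pass either and lay under the upper quartile. Of 6 measured leukocyte markers (of 12 listed) 2 rose, LYZ and CD68 (33.3%, against 10.0% of all genes called), and the log2 of their summed signal ran from 9.98 to 10.03 in 3D and from 9.30 to 9.49 in 2D, of which CD68 alone read 9.73 to 9.76 in 3D and 8.86 to 9.19 in 2D. Of 5 measured fibroblast and endothelial markers (of 12 listed) 2 rose, LUM and PECAM1 (40.0%, against 10.0%), and the log2 of their summed signal ran from 10.46 to 10.61 in 3D and from 6.84 to 7.16 in 2D. This sum followed LUM, which alone read 10.38 to 10.53 in 3D and 5.69 to 6.33 in 2D, and does not describe the other markers of the list. The leukocyte markers CD4, CD8A, CD14 and NKG7 and the markers DCN, VWF and KDR did not pass, and DCN lay under the lower quartile. PTPRC and the fibroblast collagen genes were not analysed here, and the part of these markers in the HOX results was not tested. In such bulk samples fewer cells of a type and less RNA per cell cannot be told apart.

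Over all arrays the share of HOX genes that changed lay near that of all genes. By limma, with Benjamini-Hochberg adjustment over all 14884 genes and a threshold of 0.05, 1 of the 27 coding genes rose in 3D (HOXD1) and 1 fell (HOXB9). That is 7.41% of them, against 10.0% of all genes (5.23% higher and 4.77% lower). The 3D and 2D arrays did not overlap for 8 of the 27 genes (29.6%), 4 higher and 4 lower in 3D, against 29.2% of all genes. At an unadjusted p under 0.05 there were 9 of 27 (33.3%, with 6 higher and 3 lower), against 23.5% of all genes. Among all genes with a mean over the array median, 12.6% passed the threshold, 35.4% did not overlap and 28.3% had an unadjusted p under 0.05. The estimated differences ran from -0.67 to 0.60, and the 95% intervals of HOXB1, HOXB9 and HOXA2 reached -1.08, -1.06 and -1.04, past a 2-fold decrease. Their median was 0.13 (-0.01 over all genes), and 18 of 27 were positive (66.7%, against 48.7% of all genes). Without 3D replicate 1 the median was 0.05 (-0.02 over all genes).

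**Figure D1:**
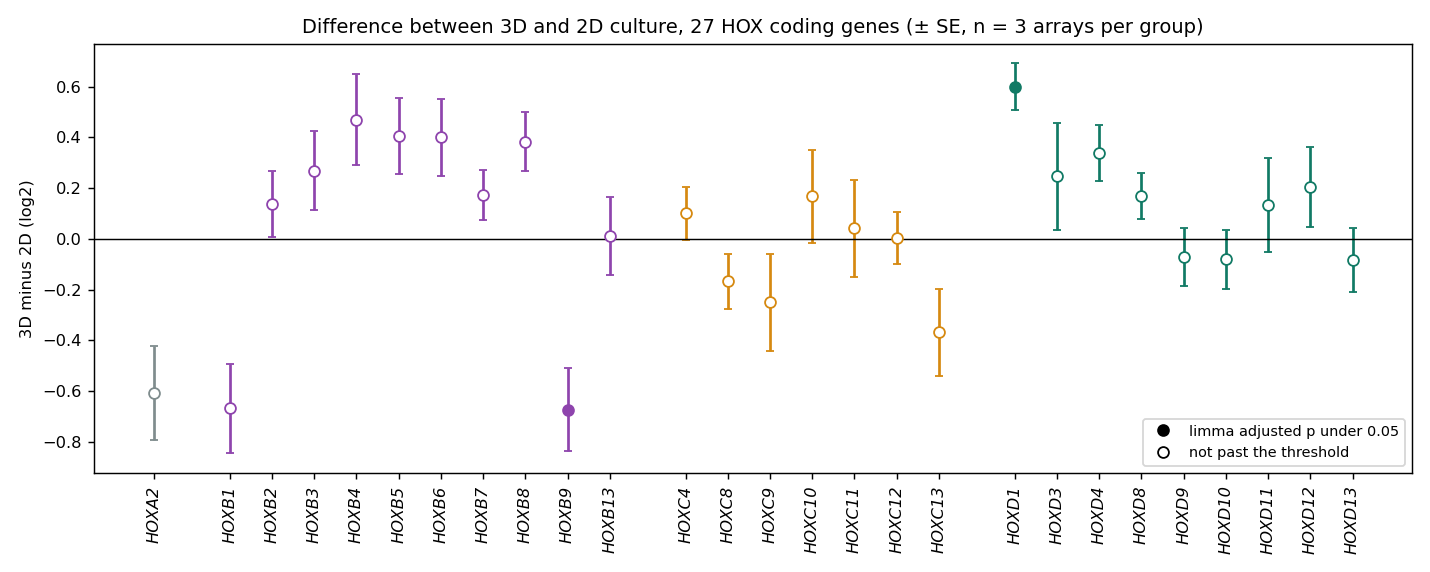
Difference between 3D and 2D culture (log2, ± SE, n = 3 arrays per group) for the 27 HOX coding genes, grouped by cluster and ordered by paralogue number. Filled points passed the threshold in limma. These are HOXB9 at -0.67 and HOXD1 at 0.60, and HOXB2 to HOXB8 all lie above 0.

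HOXD1, the most anterior gene of its cluster, was the member that rose. It read 5.80, 5.89 and 5.92 on the 3D arrays, against 5.20, 5.28 and 5.33 on the 2D arrays. The groups lay apart, with a gap wider than the spread of either. The means were 5.87 ± 0.06 in 3D and 5.27 ± 0.07 in 2D (SD, n = 3 each), a difference of 0.60 ± 0.09 (SE, limma adjusted p = 0.00635), which is 1.52-fold. The call held in all 14 alternatives tried, with differences of 0.56 to 0.64 and an adjusted p of at most 0.0373. Because the gene overlaps the non-coding RNA HAGLR in RefSeq, and the files do not say which strand and exons the probes cover, the signals of the overlapping pair cannot be separated with certainty. HAGLR itself gave 0.19 ± 0.10 (SE, adjusted p = 0.288).

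The start-site windows of HOXD1, of its cluster neighbour HOXD3 and of its paralogue HOXB1 are shown because these 3 genes gave different results: HOXD1 rose, HOXD3 overlapped between groups, and HOXB1 lay lower in 3D without passing the threshold. Each window runs from 250 bases before to 50 bases after the gene start in RefSeq (GRCh38.p14), 5′ to 3′ on the gene's strand. The windows are chr2:176188418-176188717 (plus strand) for HOXD1, chr2:176157057-176157356 (plus strand) for HOXD3 and chr17:48530962-48531261 (minus strand) for HOXB1. Capitals mark CCAAT boxes, here read on the other strand as ATTGG, and E-boxes (CACGTG).
HOXD1: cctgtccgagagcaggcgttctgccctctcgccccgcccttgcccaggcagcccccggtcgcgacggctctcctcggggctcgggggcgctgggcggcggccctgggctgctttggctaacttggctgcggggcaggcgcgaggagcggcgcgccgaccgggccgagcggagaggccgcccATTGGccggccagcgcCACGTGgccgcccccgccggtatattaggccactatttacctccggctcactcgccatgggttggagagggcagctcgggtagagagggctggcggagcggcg
HOXD3: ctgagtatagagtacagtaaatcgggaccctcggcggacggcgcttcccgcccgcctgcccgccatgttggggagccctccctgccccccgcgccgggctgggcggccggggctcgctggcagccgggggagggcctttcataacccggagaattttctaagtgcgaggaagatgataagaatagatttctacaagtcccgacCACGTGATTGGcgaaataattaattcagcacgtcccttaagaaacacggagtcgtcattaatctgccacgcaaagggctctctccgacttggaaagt
HOXB1: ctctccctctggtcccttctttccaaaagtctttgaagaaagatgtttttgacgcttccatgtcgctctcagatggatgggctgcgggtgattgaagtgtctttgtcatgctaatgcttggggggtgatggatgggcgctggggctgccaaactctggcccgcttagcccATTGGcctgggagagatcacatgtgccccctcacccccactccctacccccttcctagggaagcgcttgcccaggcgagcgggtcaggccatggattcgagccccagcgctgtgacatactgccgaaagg

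Of the 27 coding genes, 11 had such a window in the RefSeq promoter table. HOXD gave 8 of these and HOXA, HOXB and HOXC 1 each, so the counts mostly describe HOXD and not HOX genes in general. A CCAAT box stood in 9 of the 11 (34.6% of all 35116 windows), an E-box in 5 of 11 (7.26% of all) and the TEAD core GGAATG in 5 of 11 (14% of all), on either strand. The windows with an E-box were all of HOXD (HOXD1, HOXD3, HOXD10, HOXD11 and HOXD13). The PBX-HOX site TGATTNAT stood in 2 of 11 (2.82% of all), the MEIS core TGACAG in 2 of 11 (15.8%), TATAAA in 1 of 11 (11.5%) and the retinoic acid element DR5, a direct repeat of AGGTCA with 5 free bases between the copies, in 0 of 11 (0.0057%). The HOXD1, HOXD3 and HOXB1 windows held none of these last 4 and no TEAD core. HOXD1 had 36 CpG dinucleotides in its window, HOXD3 25 and HOXB1 11, against a median of 14 over all windows. CCAAT and E-box were added to the search after the sequences had been read, and a match is a description of the letters only.

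None of the remaining HOXD genes passed the test over all arrays. HOXD3 and HOXD4, which help to pattern the neck vertebrae in mice, differed by 0.25 ± 0.21 and 0.34 ± 0.11 (SE, adjusted p = 0.566 and 0.112). HOXD4 read 5.89, 6.17 and 6.16 on the 3D arrays, against 5.72, 5.66 and 5.82 on the 2D arrays, so that the groups did not overlap. Its other probe set disagreed in sign, with 4.31, 5.43 and 5.62 in 3D and 5.38, 5.48 and 5.27 in 2D (-0.25 ± 0.33), and the low value there was that of 3D replicate 1. HOXD3 and HOXD4 overlap in RefSeq, which adds to the uncertainty of both.

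HOXD8, a trunk gene, was higher on every 3D array by a small step. It read 6.66, 6.60 and 6.68 in 3D and 6.54, 6.50 and 6.38 in 2D, a difference of 0.17 ± 0.09 (SE, adjusted p = 0.334). The posterior genes HOXD9 to HOXD13, which act in limb and genital development, gave differences between -0.08 and 0.20, and the 3D and 2D arrays overlapped for all 5. HOXD13, whose mutations cause synpolydactyly in humans, read 6.20, 6.27 and 6.60 in 3D and 6.39, 6.51 and 6.41 in 2D. Its difference was -0.08 ± 0.13, with a 95% interval of -0.37 to 0.21. Over the 9 HOXD genes the median difference was 0.17, and 6 were positive.

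HOXB9, a posterior gene that in mice patterns thoracic vertebrae, was the member that fell. It read 9.33, 8.85 and 8.79 on the 3D arrays, against 9.53, 9.61 and 9.85 on the 2D arrays. All 3D arrays lay below all 2D arrays, and 3D replicate 1 lay nearest to the 2D arrays. The means were 8.99 ± 0.30 in 3D and 9.66 ± 0.17 in 2D (SD, n = 3 each), a difference of -0.67 ± 0.16 (SE, limma adjusted p = 0.0422), or 1.60-fold lower. The call was lost on leaving out any single array except 3D replicate 1 (highest adjusted p 0.145 among these fits). Without 3D replicate 1 the difference was -0.84 ± 0.12 (adjusted p = 0.00784).

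**Figure D2:**
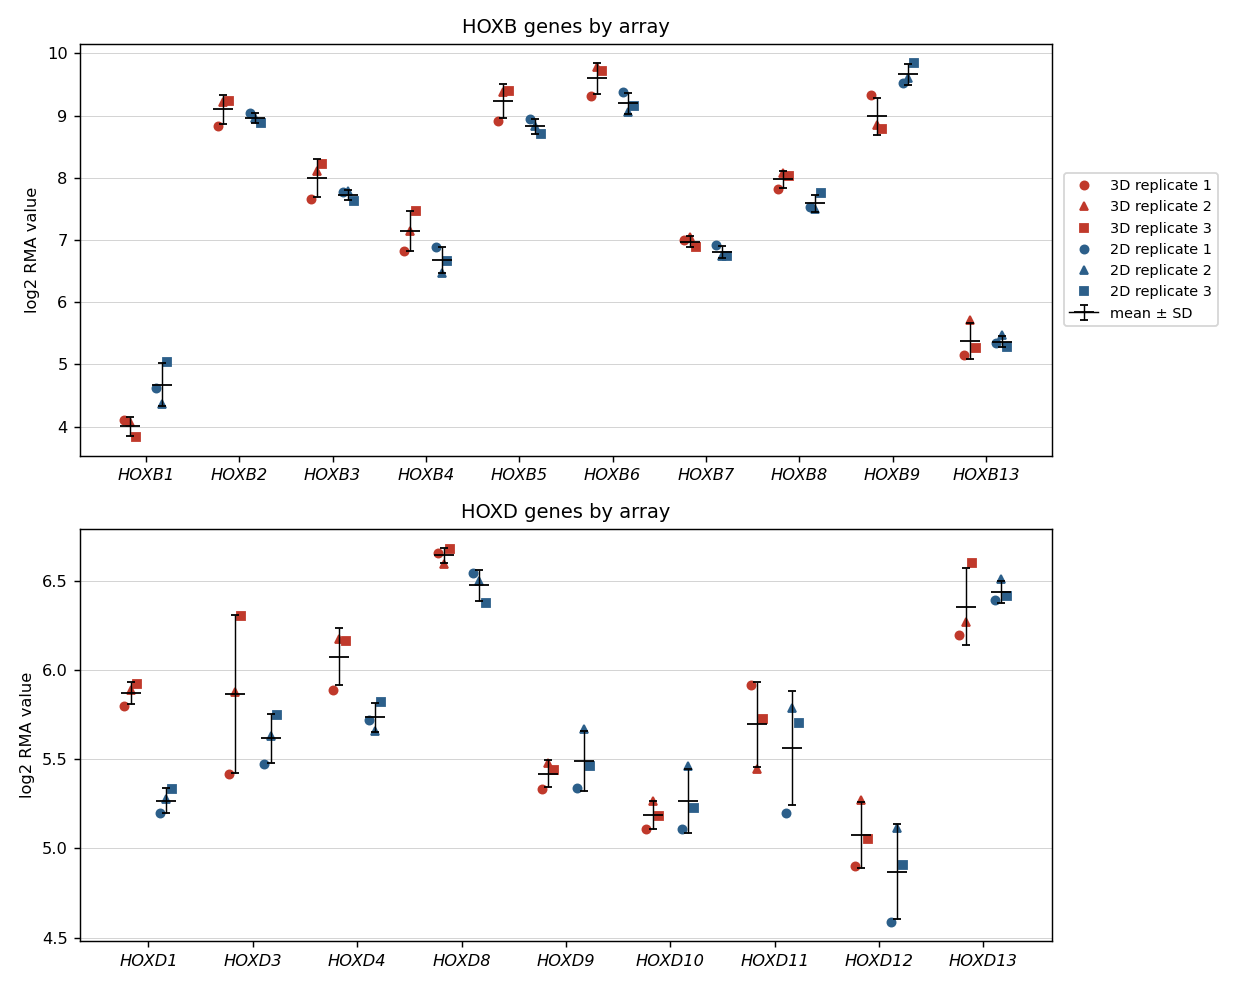
Log2 RMA values on each array (marker shape gives the replicate) with mean ± SD for the HOXB genes (top) and the HOXD genes (bottom), 3D left of 2D for each gene. HOXD1 reads 5.80 to 5.92 in 3D and 5.20 to 5.33 in 2D, HOXB9 reads 8.79 to 9.33 in 3D and 9.53 to 9.85 in 2D, and for HOXB2 to HOXB6 the circle of 3D replicate 1 lies among or below the 2D values. Heights are not comparable between genes.

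Over the 10 HOXB genes the median difference was 0.22 and 8 were positive, and without 3D replicate 1 the median was 0.36. The genes from HOXB2 to HOXB8, the neighbours of HOXB9 on its anterior side, had the opposite sign, and none passed the test on all arrays. Their differences ran from 0.14 for HOXB2 to 0.47 for HOXB4, and HOXB4, HOXB5, HOXB6 and HOXB8 had an unadjusted p under 0.05, as did 23.5% of all genes. The stretch was picked after its values were seen. HOXB8, which in mice acts in blood cell and microglial lineages, came closest. It read 7.82, 8.08 and 8.03 in 3D and 7.53, 7.50 and 7.75 in 2D, without overlap (0.38 ± 0.12 SE, adjusted p = 0.0878). HOXB4, known for expanding blood stem cells, read 6.83, 7.14 and 7.47 in 3D and 6.89, 6.47 and 6.66 in 2D (0.47 ± 0.18, adjusted p = 0.164). Here 3D replicate 1 fell among the 2D arrays, whereas the other 3D arrays lay above them.

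HOXB5, which acts in the neural crest cells of the gut, showed the same split. It read 8.92, 9.38 and 9.40 in 3D and 8.95, 8.83 and 8.70 in 2D (0.41 ± 0.15, adjusted p = 0.149). HOXB6 read 9.31, 9.78 and 9.71 in 3D and 9.38, 9.05 and 9.16 in 2D (0.40 ± 0.15, adjusted p = 0.159). In both genes the 3D replicates 2 and 3 exceeded every 2D array and 3D replicate 1 did not. The hindbrain genes HOXB2 and HOXB3 gave 0.14 ± 0.13 and 0.27 ± 0.16, and on 3D replicate 1 HOXB2 (8.83) lay below all 2D arrays (8.88 to 9.04). HOXB7 gave 0.17 ± 0.10, and its 3D arrays, up to 7.04, overlapped the 2D arrays, which ran from 6.74 to 6.92. HOXB3 overlaps HOXB4 in RefSeq, and HOXB5 and HOXB6 overlap the antisense RNA HOXB-AS3, so these signals may be shared. HOXB-AS3 read 6.67, 7.06 and 7.04 in 3D and 6.73, 6.62 and 6.78 in 2D (0.21 ± 0.13, adjusted p = 0.387). As for HOXB5 and HOXB6, its 3D replicates 2 and 3 exceeded every 2D array and 3D replicate 1 did not.

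Over HOXB2 to HOXB8, for which no test is given because the stretch was picked on its values, the median deviation from each gene's 2D mean was 0.11, 0.46 and 0.50 on the 3D arrays and 0.11, -0.06 and -0.06 on the 2D arrays. 3D replicate 1 thus stood level with 2D replicate 1. The same median over all genes stayed between -0.01 and 0.01 on every array.

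**Figure D3:**
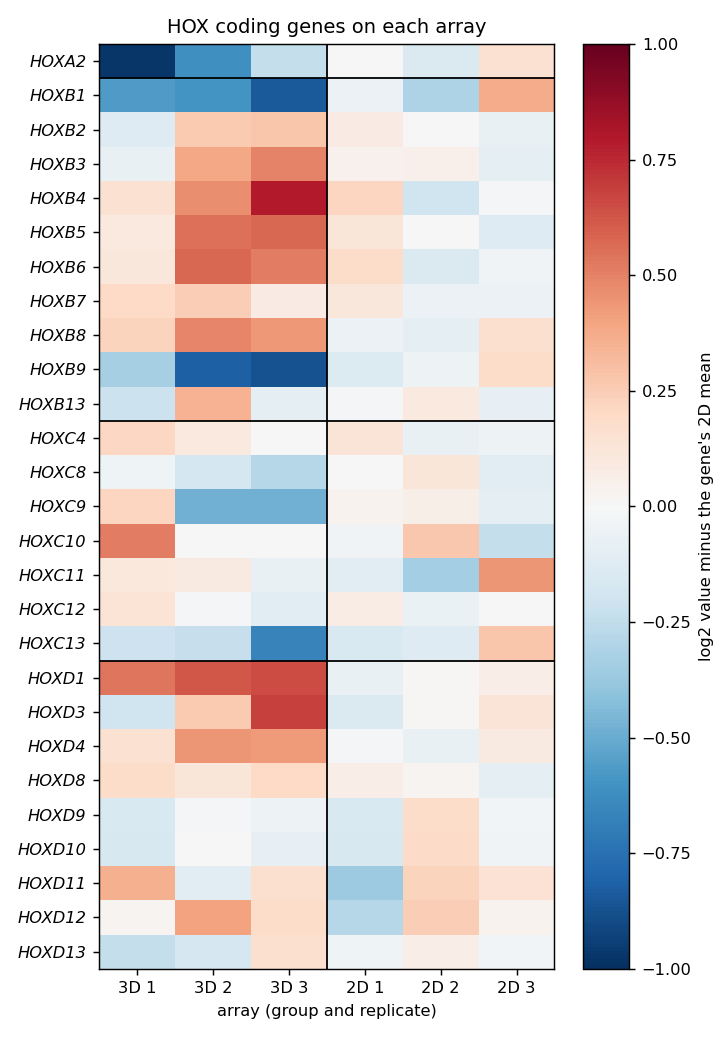
Log2 value of each HOX coding gene on each array minus the gene's mean over the 2D arrays, 3D arrays on the left, with lines between clusters HOXA, HOXB, HOXC and HOXD. HOXB3 to HOXB6 and HOXB8 are high and HOXB9 is low on 3D replicates 2 and 3, with smaller deviations on 3D replicate 1, whereas HOXD1 is high on all 3D arrays.

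At the ends of the cluster stood HOXB1 and HOXB13. HOXB1, which sets the identity of a hindbrain segment in mice, read 4.10, 4.07 and 3.83 in 3D and 4.62, 4.36 and 5.04 in 2D. The groups did not overlap, and the difference of -0.67 ± 0.18 (SE, 95% interval -1.08 to -0.26) had an adjusted p of 0.0557. It passed in 5 of 13 alternatives, with an adjusted p of 0.0397 to 0.177 over all of them. HOXB13, a gene of the prostate, read 5.15, 5.71 and 5.27 in 3D and 5.35, 5.47 and 5.28 in 2D, with a difference of 0.01 ± 0.15. HOXB1 and HOXD1 share paralogue number 1 and lay on opposite sides of 0. The difference between their responses was not tested.

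Leaving out 3D replicate 1 raised the number of HOX calls. Without it 6 coding genes rose (HOXB3, HOXB5, HOXB6, HOXB8, HOXD1 and HOXD4) and 2 fell (HOXB9 and HOXC9), 29.6% of the 27, against 12.8% of all genes in the same fit (7.36% higher and 5.40% lower). In the HOXB cluster 4 rose and 1 fell of 10. HOXB5 then differed by 0.56 ± 0.11 (SE, limma adjusted p = 0.0202) and HOXB4 by 0.63 ± 0.16 (adjusted p = 0.05003, just above the threshold). Without 3D replicate 2 or 3 the risen members numbered 1 each. Over all genes the risen numbered 446 and 420 in these fits, in that order, against 1096 in the fit lacking 3D replicate 1. The smaller count of risen genes was thus not confined to HOX members. HOXB3, HOXB5, HOXB6 and HOXD4 passed in none of the other alternatives tried.

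**Figure D4:**
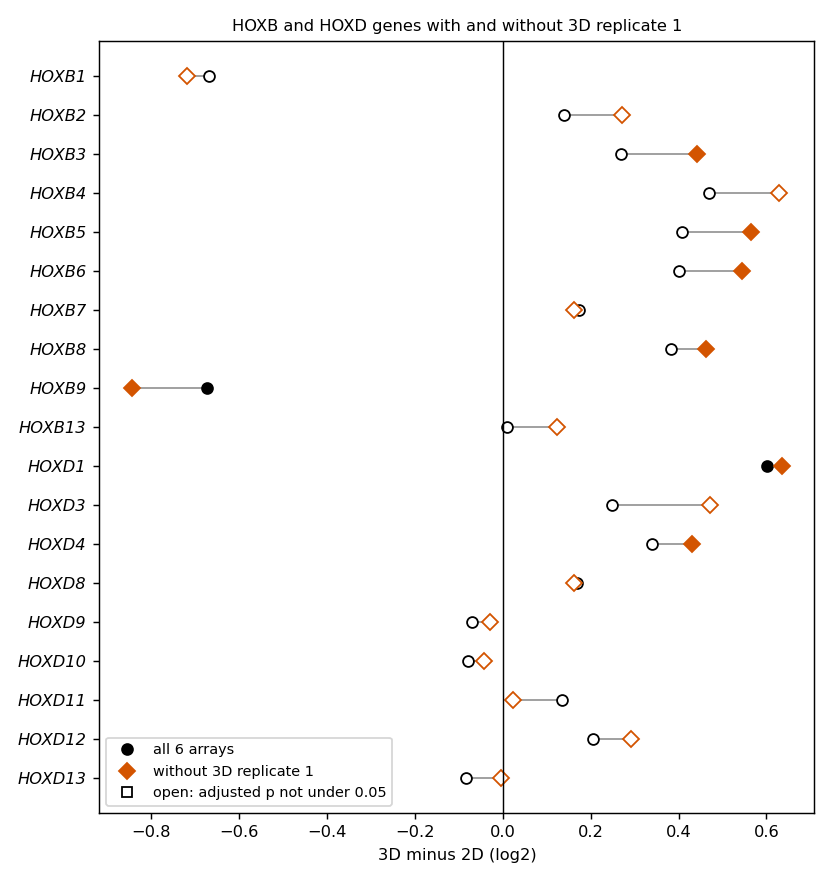
Difference between 3D and 2D culture (log2) for each HOXB and HOXD gene over all 6 arrays (circles) and without 3D replicate 1 (diamonds), filled where the adjusted p in limma was under 0.05. HOXB3, HOXB5, HOXB6, HOXB8 and HOXD4 are filled in the second fit alone, and HOXB9 and HOXD1 in both.

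In the HOXC cluster 0 of 7 genes passed over all arrays, against 10.0% of all genes. At an unadjusted p under 0.05 (limma) there were 0 of 7, against 23.5% of all genes. The median difference was 0.00, from -0.37 for HOXC13, a regulator of hair keratin genes, to 0.17 for HOXC10. HOXC13 read 4.25, 4.23 and 3.79 in 3D and 4.31, 4.33 and 4.74 in 2D, without overlap (-0.37 ± 0.17 SE, adjusted p = 0.245). HOXC9, a trunk and limb gene, read 5.59, 4.89 and 4.89 in 3D and 5.41, 5.44 and 5.28 in 2D. 3D replicate 1 exceeded every 2D array while the other 3D arrays lay below them, so the difference was -0.25 ± 0.19 over all arrays (adjusted p = 0.516) and -0.48 ± 0.10 without 3D replicate 1 (adjusted p = 0.0234). HOXC12 read 5.72, 5.56 and 5.48 in 3D and 5.66, 5.52 and 5.58 in 2D, with a difference of 0.00 ± 0.10 and a 95% interval of -0.23 to 0.24. HOXC4, HOXC8, HOXC10 and HOXC11 overlapped between the groups, at differences of -0.17 to 0.17. HOXC4 shares its locus with HOXC5 and HOXC6 in RefSeq.

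HOXA2, which patterns the hindbrain and the second pharyngeal arch, was the coding member of the HOXA cluster. It read 4.08, 4.44 and 4.82 in 3D and 5.05, 4.90 and 5.21 in 2D. The groups lay apart by a narrow margin and the 3D arrays were widely spread (mean 4.44 ± 0.37 in 3D and 5.05 ± 0.15 in 2D, SD, n = 3 each). The difference of -0.61 ± 0.19 (SE) had an adjusted p of 0.0891 in limma. It passed in 1 of 13 alternatives, the fit without 3D replicate 3 (-0.79, adjusted p = 0.0369). The highest adjusted p among the 13 was 0.241. Without 3D replicate 1 the difference was -0.43 ± 0.15 (adjusted p = 0.120).

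Grouped by position on the body axis, the central genes (paralogue numbers 4 to 8) had a median difference of 0.34 with 8 of 9 positive. The anterior genes (up to 3) had a median of 0.19 with 4 of 6 positive, and the posterior genes (9 to 13) -0.03 with 6 of 12 positive. Over all genes the median was -0.01, with 48.7% positive. The test was passed by 0 of 9 central, 1 of 6 anterior (HOXD1, 16.7%) and 1 of 12 posterior genes (HOXB9, 8.33%), against 10.0% of all genes. The central group includes HOXB4 to HOXB8, part of the stretch picked after its values were seen. It also includes HOXD4, whose other probe set gave -0.25. Within the 3D group the median SD of the 27 genes was 0.22 (0.14 over all genes), and within the 2D group 0.14 (0.13 over all genes).

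Of the 3 antisense RNAs that the rule took in, 0 passed (10.0% of all genes did). None had an unadjusted p under 0.05 in limma (23.5% of all genes did). HOXC13-AS, which overlaps HOXC13, read 5.77, 5.30 and 5.53 in 3D and 5.37, 5.20 and 5.33 in 2D (0.24 ± 0.13 SE, adjusted p = 0.351), a sign opposite to that of HOXC13. HOXA10-AS gave 0.13 ± 0.15 and HOXA11-AS 0.03 ± 0.09. Of 6 further non-coding RNAs of the clusters (of 13 listed) 0 passed, against 10.0% of all genes. HOTAIR, transcribed from the HOXC cluster and known for its link to Polycomb complexes, read 3.32, 3.00 and 3.37 in 3D and 3.02, 3.36 and 3.26 in 2D. HOTTIP, from the posterior end of HOXA, gave -0.09 ± 0.10, and HOXD-AS2 gave -0.28 ± 0.10 (adjusted p = 0.139).

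The clusters also hold microRNA genes, of which 5 (of 6 listed) were measured by probe sets for the gene, which do not measure the mature strand. The mature 5p strands of the miR-196 genes are shown because the gene that fell, MIR196A2 in HOXC, and MIR196A1 in HOXB give the same mature sequence. In mice, miR-196 pairs almost perfectly with the HOXB8 messenger and directs its cleavage. Capitals mark the seed (bases 2 to 8), which all 3 genes share. The sequences are from RefSeq (GRCh38.p14), at chr12:53991762-53991783 (plus strand) for MIR196A2, chr17:48632532-48632553 (minus strand) for MIR196A1 and chr7:27169528-27169549 (minus strand) for MIR196B.
hsa-miR-196a-5p: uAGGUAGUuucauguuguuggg
hsa-miR-196b-5p: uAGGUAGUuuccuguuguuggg

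Of the 5 measured microRNA genes 1 fell (20.0%, against 10.0% of all genes called). MIR196A2 read 2.68, 2.54 and 2.51 in 3D and 3.15, 2.95 and 3.12 in 2D. The groups did not overlap, and the difference was -0.49 ± 0.10 (SE, limma adjusted p = 0.0226), at a signal whose mean of 2.83 lay under the lower quartile. MIR196A1 read 3.70, 3.53 and 3.05 in 3D and 4.93, 3.79 and 3.54 in 2D, overlapping between the groups (-0.66 ± 0.35, adjusted p = 0.317). MIR196B in HOXA gave 0.12 ± 0.16, MIR615 in HOXC -0.33 ± 0.11 (adjusted p = 0.127) and MIR10B in HOXD 0.04 ± 0.13, the last at a mean of 1.69.

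Among the TALE cofactors and the regulators of HOX genes, 9 of 49 measured members of 4 lists passed the test (18.4%, against 10.0% of all genes). Each of the 9 differed by less than 2-fold except RDH10. Of 8 measured TALE cofactors (of 11 listed), 1 rose and 2 fell (37.5%, against 10.0% of all genes), with a median of -0.04. PBX3, a direct DNA-binding partner of HOX proteins, fell to 5.18, 4.98 and 5.20 in 3D, against 5.89, 5.71 and 5.71 in 2D (-0.65 ± 0.11 SE, adjusted p = 0.00888). The TALE repressor TGIF1 fell by 0.59 ± 0.11 (adjusted p = 0.0151). MEIS2 rose, with 6.62, 6.61 and 6.70 in 3D and 6.35, 6.14 and 6.18 in 2D (0.42 ± 0.10, adjusted p = 0.0341). The groups did not overlap for PBX3, TGIF1 or MEIS2. The MEIS2 relatives MEIS1 and PKNOX1 gave 0.46 ± 0.17 and 0.36 ± 0.11 (adjusted p = 0.153 and 0.0897), and PBX2 gave -0.01 ± 0.11.

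Of 23 Polycomb genes (of 29 listed), 1 rose and 3 fell (17.4%, against 10.0% of all genes), with a median of -0.03. Those that fell were RYBP (-0.48 ± 0.10 SE, adjusted p = 0.0254) and PCGF5 (-0.48 ± 0.10, adjusted p = 0.0252), subunits of variant PRC1 complexes, and SCMH1 (-0.44 ± 0.10, adjusted p = 0.0304). RBBP7, a histone-binding protein of PRC2 and other complexes, rose by 0.44 ± 0.10 (adjusted p = 0.0276). The PRC2 core genes EZH2 and SUZ12 did not pass, with -0.03 ± 0.16 and 0.04 ± 0.10. Of 11 Trithorax and activator genes (of 22 listed), 0 rose and 1 fell (9.09%, near the 10.0% of all genes), with a median of -0.02. This was WDR5, the shared scaffold of MLL complexes, which read 7.08, 7.30 and 7.28 in 3D and 7.63, 7.74 and 7.76 in 2D (-0.49 ± 0.10, adjusted p = 0.0226).

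Of 7 measured retinoic acid pathway genes (of 21 listed) 1 rose (14.3%, against 10.0% of all genes), with a median of 0.01. RDH10, which makes the retinaldehyde precursor of retinoic acid, read 8.36, 8.34 and 8.44 in 3D and 7.31, 7.25 and 7.41 in 2D, a difference of 1.06 ± 0.09 (SE, limma adjusted p = 0.000495), or 2.08-fold. The retinoic acid binding protein gene CRABP2 gave 0.11 ± 0.09, the reductase gene DHRS3 -0.28 ± 0.34 and the caudal homeobox genes CDX1, CDX2 and CDX4 -0.16, 0.01 and -0.19, none of which passed. Of 16 measured genes beside the clusters (of 21 listed) 1 rose (6.25%, against 10.0% of all genes). This was SKAP2 next to HOXA, which read 7.19, 7.34 and 7.25 in 3D and 6.86, 6.90 and 6.58 in 2D (0.48 ± 0.11, adjusted p = 0.0400). Its relative SKAP1, next to HOXB, gave 0.49 ± 0.13 (adjusted p = 0.0505). The median over these neighbours was 0.06. The cofactor, Polycomb, Trithorax, retinoic acid and neighbour lists together held 10 changed members. These became 13, 4 and 2 on leaving out 3D replicates 1, 2 and 3 in turn. Over all genes the 1488 changed became 1899, 795 and 775 in the same fits. Leaving out 2D replicates 1, 2 and 3 gave 4, 4 and 2 list members, and 920, 921 and 876 of all genes.

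**Figure D5:**
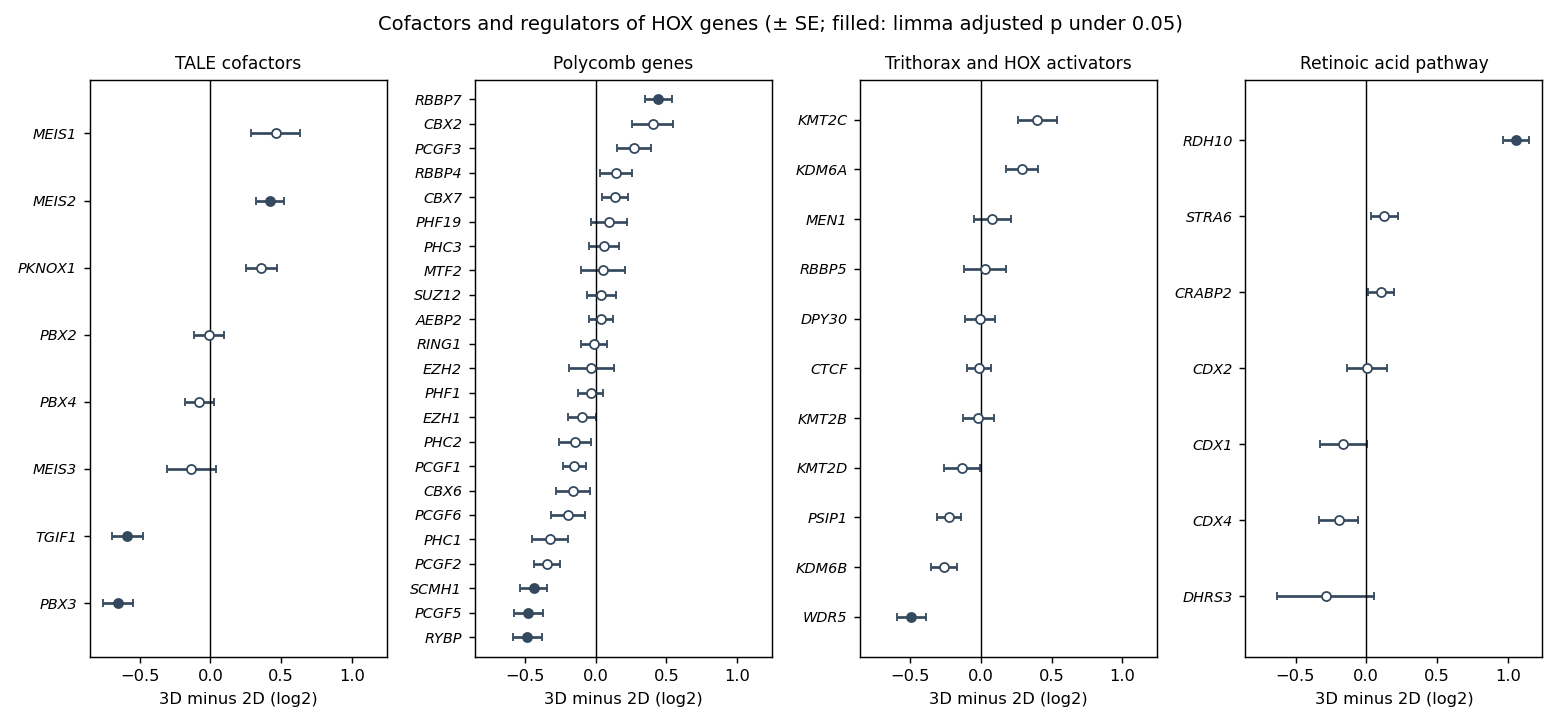
Difference between 3D and 2D culture (log2, ± SE, n = 3 arrays per group) for the measured TALE cofactors, Polycomb genes, Trithorax genes and retinoic acid pathway genes, filled where the adjusted p in limma was under 0.05. RDH10 at 1.06 is the farthest from 0, and 9 points are filled in all.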

How the data were processed

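Log2 values of 53617 probe sets on 6 arrays were deposited by the authors, made with RMA per the submitters' processing notes. The RMA version and the authors' filters were not stated in the labels. The scale was read as log2 from its range (0.30 to 13.87). The probe annotation belongs to a whole-transcript array, but a 3′ IVT kit is named in the protocol, and this was not resolved. Of the probe sets, 16098 carry 1 gene symbol, 0 several and 37519 none. Each of 14884 genes was represented by its brightest probe set. Groups were compared with limma 3.58.1 in R 4.3.3 (moderated, two-sided, Benjamini-Hochberg adjusted p under 0.05). On simulated data for these 14884 genes the 3D against 2D fit recovered 25.5% of genes changed 1.5-fold, 75.5% changed 2-fold and 99.0% changed 4-fold. The number of arrays limits the precision. Named were all HOX members, with values by array for changed members and the 2 brightest of each cluster, and up to 6 changed members of each list; other values by array were chosen after they had been seen. Members and lists were chosen with earlier results of these data known. Alternatives were repeated quantile normalization, median centring, leaving out dim probe sets, other probe sets per gene (their mean, the most variable, or each singly), a variance model that was robust and trended, a replicate block and leaving out each array.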

Additional observations from a re-analysis of the deposited data

How the results depend on the processing

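HOXD1 kept its call in all 14 alternatives. HOXB9 kept its direction in 14 and its call in 7, and lost the call with all probe sets tested singly (adjusted p = 0.141). Over all genes 1488 changed, 775 to 1899 with 1 array left out. HOX coding genes numbered 1 higher and 1 lower, with 1 to 6 higher and 0 to 2 lower with 1 array left out. The lower count was 2 after repeated quantile normalization, median centring or the dim filter, and 2 rose and 2 fell with the trended robust variance (HOXB8 and HOXB1 joining). Antisense calls stayed at 0 in all 13 alternatives. The median HOX difference of 0.13 was 0.12 after repeated quantile normalization, 0.10 with the mean or most variable probe set, and 0.047 (without 3D replicate 1) to 0.137 with 1 array left out. HOXC12, near 0, turned to -0.018 after repeated quantile normalization and ran from -0.063 to 0.057 with 1 array left out. Of the members of 5 lists (cofactors, Polycomb, Trithorax, retinoic acid and neighbours, counted under the alternatives by a choice made after seeing the data), 10 changed, and 2 to 13 with 1 array left out. Deviations from the group means did not show same-numbered samples to be pairs (correlations -0.28, -0.06 and -0.18, and no number gave a mutual best match). With 3 arrays per group this check cannot show whether such samples shared a culture or day, which the labels do not state. With the replicate number as a block, 760 genes changed, 1 HOX coding gene rose, 0 fell (HOXB9 adjusted p = 0.125) and 2 list members changed. The causes of these shifts were not tested, and the fits with an array left out also had fewer samples. Dim probe sets compress differences, and changes under 2-fold were often missed at this array number.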
